A study of Mus musculus with 9 samples.

Results

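The small RNA pathway was followed through 10 genes in single mouse oocytes at metaphase II: Dicer1, Drosha and Dgcr8, which make small RNAs, the Argonaute genes Ago1, Ago2, Ago3 and Ago4, which use them, and the Piwi pathway genes Piwil2, Piwil4 and Mael. They were chosen by symbol. All 10 had a row that the platform's probe table assigns to 1 gene, out of 19938 genes with such a row. Ago2 had a pair of rows, and the one with the higher mean was taken for it.

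Each of the 9 Affymetrix Mouse Gene 1.0 ST arrays held the amplified RNA of 1 oocyte. In 3 oocytes the RNA was not purified and the crude lysate in NuGEN direct lysis buffer was amplified, in 3 it was purified with the Arcturus PicoPure kit, and in 3 with the Qiagen RNeasy Mini kit. The last 2 sets are called purified RNA (n = 6). All oocytes came from unmated outbred ICR females aged 2 months, given 10 IU of PMSG and 46 hours later hCG, with no other treatment and no mutant allele. The design asks how the preparation changes the transcriptome read from 1 cell. The labels name 3 mice per condition but not the mouse behind each oocyte, so a p-value here reflects the spread between single oocytes, of which several can be from 1 mouse.

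Values are the authors' normalized log2 expression values, in which a difference of 1 is a doubling. A gene was called above background on an array when it exceeded the 95th percentile of 1233 olfactory, vomeronasal and taste receptor genes there. This level ran from 7.23 to 7.29 in crude lysate, from 7.19 to 7.26 with PicoPure and from 7.26 to 7.47 with RNeasy. It is a working limit, not a detection p-value. All 11 oocyte markers lay above it on all 9 arrays, among them the zona pellucida gene Zp3 and the growth factor gene Gdf9. Of 15 cumulus and granulosa cell markers 2 did so (Foxl2 and Nr5a2) and 8, Fshr included, lay above it on no array. Their mean level ran from 7.08 to 7.19 in crude lysate and from 6.96 to 7.42 in purified RNA. The highest was RNeasy replicate 3, in which Inhba (8.48), Tnfaip6 (8.39) and Ptgs2 (7.56) were above background, as on no other array. Of 8 blood and immune cell markers 1 (Cd3e) lay above it throughout and 6, Ptprc included, on no array, with mean levels from 6.46 to 6.52 in crude lysate and from 6.36 to 6.55 in purified RNA.

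MicroRNA precursors are cut in the nucleus by Drosha with its RNA-binding partner Dgcr8, and then in the cytoplasm by Dicer. Dicer also cuts long double-stranded RNA into small interfering RNAs, and mouse oocytes are unusual among mammalian cells in making many of these from their own transcripts. Argonaute proteins carry both kinds to target RNAs, while the germline's Piwi proteins carry piRNAs that silence transposons. In mouse oocytes, loss of Dicer disturbs the meiotic spindle, whereas loss of Dgcr8 does not stop maturation.

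Of the 10 genes, 6 lay above background on all 9 arrays: Dicer1, Drosha, Dgcr8, Ago2, Ago3 and Mael. Among all genes that share was 43.1%. Ago1, Ago4 and Piwil4 were above background on no array, which held for 35.1% of all genes, and Piwil2 on 1. A value under this level does not show that the message is absent. No gene of the 10 passed the test between any preparations. Ago3 and Drosha had the largest differences of the 10 between crude lysate and purified RNA (-0.77 and -0.64). In both genes the lysates overlapped with purified RNA as a whole and with RNeasy alone. Every crude lysate lay below every PicoPure oocyte, and 16.6% of all genes had no overlap between these groups in either direction.

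**Figure D1:**
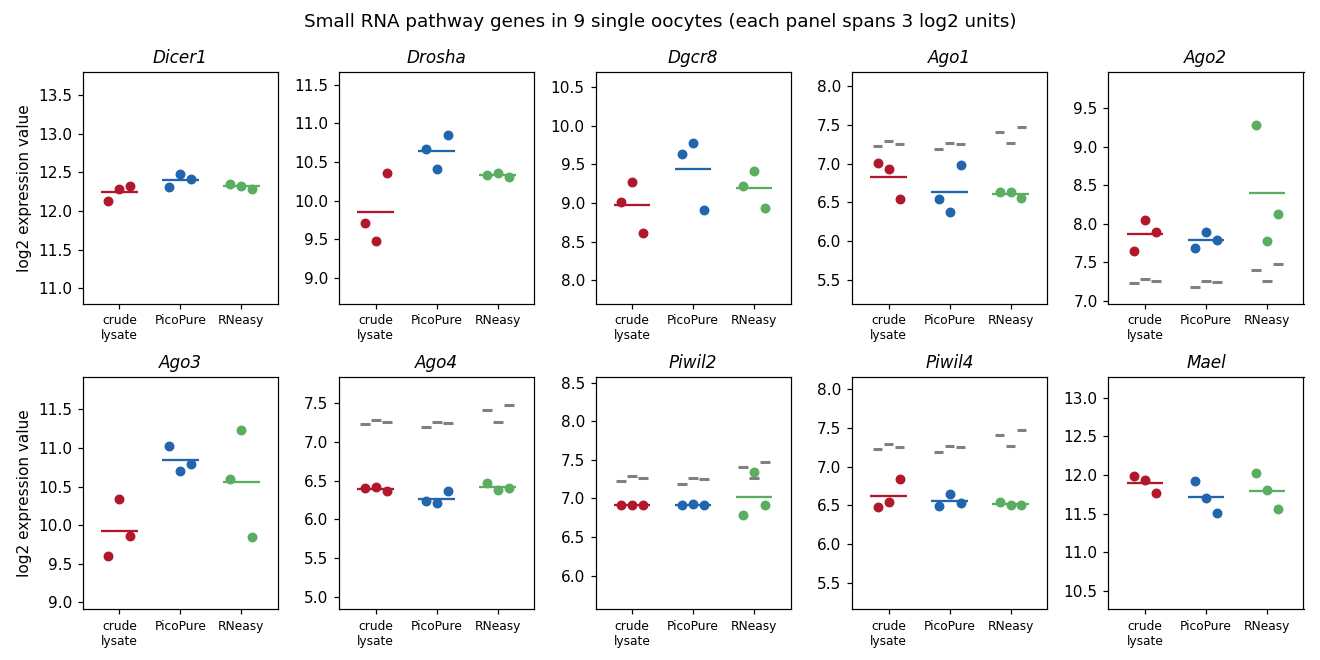
Log2 expression value of each gene (vertical axis, 3 log2 units in every panel) in 3 crude lysates, 3 PicoPure and 3 RNeasy oocytes, with each dot 1 oocyte, coloured bars the group means and short grey marks the background level of that array where it falls inside the panel. Ago1, Ago4 and Piwil4 lie below the grey marks on every array, and the highest Ago2 dot, at 9.28, is RNeasy replicate 1.

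Dicer1, Drosha and Dgcr8 were all above background on every array. Dicer1, the ribonuclease that makes microRNAs and small interfering RNAs, had 12.12, 12.29 and 12.32 in crude lysate, 12.31, 12.48 and 12.41 with PicoPure and 12.35, 12.32 and 12.29 with RNeasy. The 3 preparations overlapped, and all 9 oocytes lay within 0.35 log2 units. Its SD over the 9 arrays was 0.10, larger than that of 13.2% of the 8598 genes above background on all arrays, whose median SD was 0.22. Those genes are of all levels. Among oocyte markers near the level of Dicer1 the SD was 0.08 for Zp2 and 0.09 for Dppa3, but 0.12 for Btg4 and 0.14 for Zp1. Mouse oocytes also make a shorter Dicer from a start inside an intron, and the single row used here does not separate the forms. Which of them its probes read was not examined.

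Drosha, the nuclear ribonuclease that starts microRNA processing, had 9.71, 9.48 and 10.36 in crude lysate. It had 10.66, 10.41 and 10.85 with PicoPure and 10.34, 10.36 and 10.31 with RNeasy. Crude lysate replicates 1 and 2 lay below all 6 purified oocytes, while replicate 3 lay at the level of the RNeasy oocytes. Drosha averaged 9.85 ± 0.46 in the lysates (SD, n = 3) and 10.49 ± 0.22 after purification (SD, n = 6), a difference of -0.64 ± 0.19 SE or 1.56-fold (limma, adjusted p = 0.191). The unadjusted 95% interval ran from -1.07 to -0.21. Without DirectLysis replicate 3 the difference was -0.89 and passed (limma, adjusted p = 0.0392), and with other single arrays left out the adjusted p reached 0.377. With PicoPure every oocyte was higher than with RNeasy, by 0.31 ± 0.21 SE on average (limma, adjusted p = 0.774).

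Dgcr8, the RNA-binding partner of Drosha, had 9.02, 9.28 and 8.62 in crude lysate, 9.64, 9.78 and 8.91 with PicoPure and 9.22, 9.42 and 8.94 with RNeasy. Replicate 3 was the lowest oocyte in each preparation, and the preparations overlapped. The means were 8.97 ± 0.33 in the lysates (SD, n = 3) and 9.32 ± 0.36 after purification (SD, n = 6), and the difference of -0.35 ± 0.23 SE did not pass (limma, adjusted p = 0.521). Without DirectLysis replicate 3 it was -0.17. Its unadjusted 95% interval ran from -0.87 to 0.18.

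The Argonaute genes differed in whether they were detected. In the RefSeq annotation Ago3, Ago1 and Ago4 are direct neighbours on chromosome 4 and are read from the same strand. Of these 3, Ago3 was above background on every array and Ago1 and Ago4 on none, although Ago1 exceeded a looser level, the 90th percentile of the receptor genes, on 2 arrays. Their promoters are shown because detected and undetected genes stand side by side there. The 250 bases before the annotated start are given 5′ to 3′ (RefSeq, GRCm38.p6), with each CG dinucleotide in capitals, and Ago1 has a second annotated start that is not shown. Oocytes may use other starts.
Ago3, chr4:126429543-126429792, minus strand: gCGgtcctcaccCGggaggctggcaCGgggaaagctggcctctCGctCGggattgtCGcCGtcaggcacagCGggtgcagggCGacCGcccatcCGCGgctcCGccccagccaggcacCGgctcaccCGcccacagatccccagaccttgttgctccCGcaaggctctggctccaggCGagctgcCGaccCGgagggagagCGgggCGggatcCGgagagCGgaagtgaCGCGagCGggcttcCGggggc
Ago1, chr4:126468632-126468881, minus strand: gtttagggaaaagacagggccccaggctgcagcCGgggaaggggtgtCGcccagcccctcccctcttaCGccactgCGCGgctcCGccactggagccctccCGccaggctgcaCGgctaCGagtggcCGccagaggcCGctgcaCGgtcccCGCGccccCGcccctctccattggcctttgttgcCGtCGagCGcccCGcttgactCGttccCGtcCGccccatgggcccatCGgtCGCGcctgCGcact
Ago4, chr4:126533459-126533708, minus strand: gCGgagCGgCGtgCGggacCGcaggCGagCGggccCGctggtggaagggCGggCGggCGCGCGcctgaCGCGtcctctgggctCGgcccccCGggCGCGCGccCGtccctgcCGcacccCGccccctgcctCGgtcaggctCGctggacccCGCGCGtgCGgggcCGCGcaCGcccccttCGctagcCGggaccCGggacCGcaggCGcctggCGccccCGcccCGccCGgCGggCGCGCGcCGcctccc
These windows hold 27 CG in Ago3, 26 in Ago1 and 46 in Ago4. CG reads the same on both strands. Over 32851 windows of this length in the table the median was 6, and 8.56%, 9.59% and 0.32% of windows held at least as many as Ago3, Ago1 and Ago4. The undetected Ago4 thus had the most of the 3, and Ago1 and Ago3 differed by 1. Dicer1, Drosha and Dgcr8 had 39, 33 and 36 CG, Mael had 18, and both windows of Piwil4 had 10 and 0. In all, 8 of the 10 genes had a window in the table. Ago2 and Piwil2 were not among them.

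Ago3 had 9.60, 10.34 and 9.86 in crude lysate. It had 11.03, 10.71 and 10.80 with PicoPure and 10.60, 11.23 and 9.85 with RNeasy. All crude lysates lay below all PicoPure oocytes, but RNeasy replicate 3, the oocyte with the highest cumulus marker level, lay among the lysates. The means were 9.93 ± 0.37 in the lysates (SD, n = 3) and 10.70 ± 0.48 after purification (SD, n = 6), a difference of -0.77 ± 0.29 SE or 1.71-fold (limma, adjusted p = 0.295). The unadjusted 95% interval ran from -1.44 to -0.10. Without RNeasy replicate 3 the difference was -0.95 (limma, adjusted p = 0.139), and the part of the cumulus markers in it was not tested. Against PicoPure alone the difference was -0.91 ± 0.33 SE (limma, adjusted p = 0.330). Its SD over the 9 arrays, 0.57, was larger than that of 91.8% of the genes above background throughout.

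Ago2 encodes the Argonaute best known for cutting its target RNA. It had 7.65, 8.05 and 7.89 in crude lysate, 7.69, 7.89 and 7.79 with PicoPure and 9.28, 7.77 and 8.13 with RNeasy. Apart from RNeasy replicate 1, all oocytes lay between 7.65 and 8.13. Ago2 was above background on all 9 arrays, but above the 99th percentile of the receptor genes on 1. The second row of Ago2 gave 7.84, 7.81 and 7.93 in crude lysate, 7.75, 7.79 and 7.67 with PicoPure and 7.78, 7.89 and 7.81 with RNeasy. In that row RNeasy replicate 1 did not stand apart. The difference of crude lysate from purified RNA was -0.23 ± 0.30 SE in the row used (limma, adjusted p = 0.755) and 0.08 ± 0.06 SE in the second (limma over all rows, adjusted p = 0.573), so its sign rests on the row. Without RNeasy replicate 1 the row used gave -0.01.

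Ago1 had 7.00, 6.92 and 6.55 in crude lysate, 6.54, 6.37 and 6.99 with PicoPure and 6.63, 6.63 and 6.56 with RNeasy. Ago4 had 6.40, 6.41 and 6.36 in crude lysate, 6.23, 6.21 and 6.36 with PicoPure and 6.46, 6.37 and 6.40 with RNeasy. Neither came above the background level of its array. For Ago4 all PicoPure oocytes lay below all RNeasy oocytes, a difference of -0.15 ± 0.07 SE between values that are both below background (limma, adjusted p = 0.645).

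Of the Piwi pathway genes only Mael was above background throughout. Mael, a germline protein needed for transposon silencing in the mouse testis, had 11.98, 11.94 and 11.76 in crude lysate, 11.93, 11.70 and 11.51 with PicoPure and 12.02, 11.80 and 11.56 with RNeasy. The preparations overlapped. The means were 11.90 ± 0.12 in the lysates (SD, n = 3) and 11.76 ± 0.20 after purification (SD, n = 6) (difference 0.14 ± 0.13 SE, limma, adjusted p = 0.642), with an unadjusted 95% interval from -0.15 to 0.43. Without RNeasy replicate 3 the difference was 0.08, and without PicoPure replicate 3 it was 0.09.

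Piwil2, which binds piRNAs in male germ cells and in growing oocytes of the mouse, was at 6.92 in all 3 crude lysates. It had 6.91, 6.93 and 6.92 with PicoPure and 6.79, 7.35 and 6.92 with RNeasy. It was above background on 1 array, RNeasy replicate 2. Piwil4, which acts in the fetal mouse testis, had 6.48, 6.54 and 6.84 in crude lysate, 6.50, 6.64 and 6.52 with PicoPure and 6.54, 6.50 and 6.50 with RNeasy, all below background.

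Counted over all 10 genes, 0 passed between crude lysate and purified RNA (limma, all genes adjusted together), where 1.01% of all 19938 genes did. At an unadjusted p under 0.05 there were 2, Drosha and Ago3, against 14.2% of all genes, so that with 10 genes this count is near the background. The difference was negative for 6 of the 10, with a median of -0.08, and for 49.4% of all genes, with a median of 0.00. No gene of the 10 had groups that did not overlap, against 8.02% of all genes. Between PicoPure and RNeasy 0 passed, where 0.0602% of all genes did, and 0 had an unadjusted p under 0.05 (7.98% of all genes). Groups did not overlap for 2 of the 10, Drosha and Ago4, against 13.9% of all genes.

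Crude lysate against PicoPure gave 0 calls (0.597% of all genes were called), 2 genes at an unadjusted p under 0.05 (12.3% of all genes) and 3 without overlap (16.6% of all genes), Drosha and Ago3 lower and Ago4 higher. Crude lysate against RNeasy gave 0 calls (0.436% of all genes were called), 0 at an unadjusted p under 0.05 (13.4% of all genes) and 0 without overlap (16.9% of all genes). These comparisons share the crude lysates. The moderated F over the 3 preparations called 0 of the 10 (0.637% of all genes), with 1 at an unadjusted p under 0.05 (12.8% of all genes).

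**Figure D2:**
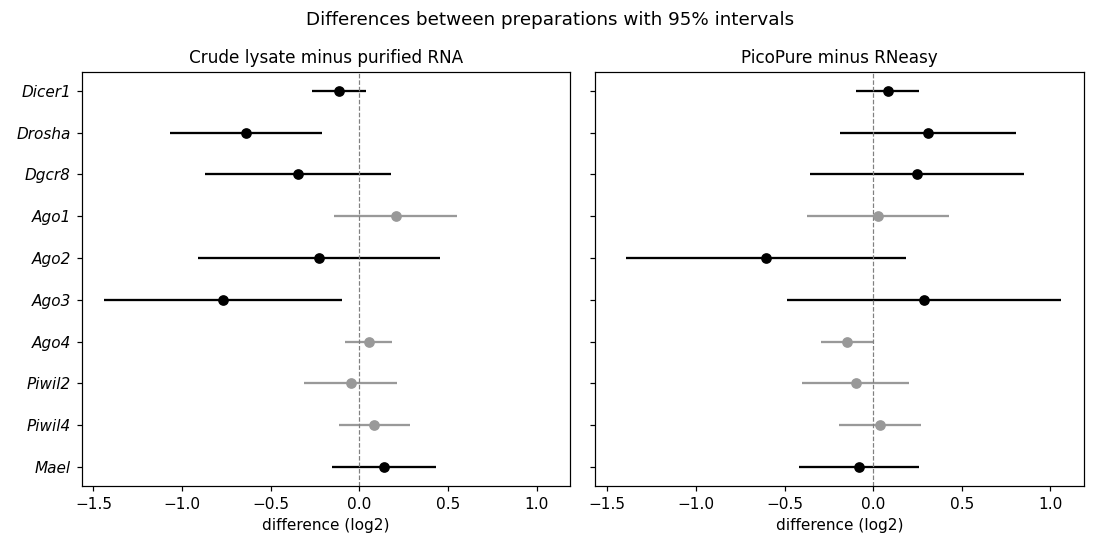
Difference of each gene on the log2 scale (horizontal axis) between crude lysate and purified RNA (left) and between PicoPure and RNeasy (right), with dots for limma's estimates and lines for unadjusted 95% intervals, black for genes above background on all 9 arrays and grey for the others. On the left the intervals of Drosha and Ago3 lie below 0, yet neither passed after adjustment over all genes.

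By the size of their intervals these arrays bound some genes more tightly than others. For Dicer1 the 95% interval of crude lysate minus purified RNA ran from -0.27 to 0.04, and of PicoPure minus RNeasy from -0.10 to 0.26. The first difference was -0.12, and -0.05 without DirectLysis replicate 1. For Ago2 the intervals ran from -0.91 to 0.46 and from -1.39 to 0.18. The wide intervals of Ago2 are those of the row used with RNeasy replicate 1 included: without that oocyte PicoPure minus RNeasy was -0.16, against -0.60 with it, and in the second row it was -0.09.

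Among the genes above background throughout, Ago3 varied the most of the 10, and the genes closest to it in pattern were sought. Likeness was the root mean square difference between values centred on each gene's own mean over 9 arrays. Of 8597 genes compared, Zdhhc20, a palmitoyltransferase gene, was closest at 0.19, then Ptpn12, a tyrosine phosphatase gene, at 0.23 and Septin2, a cytoskeletal GTPase gene, at 0.26, where the median of all genes was 0.57. They are the nearest of many genes compared on few arrays, so their closeness is a description. Their own differences between crude lysate and purified RNA were -1.06, -0.65 and -0.42 (limma, adjusted p = 0.110, 0.232 and 0.442).

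**Figure D3:**
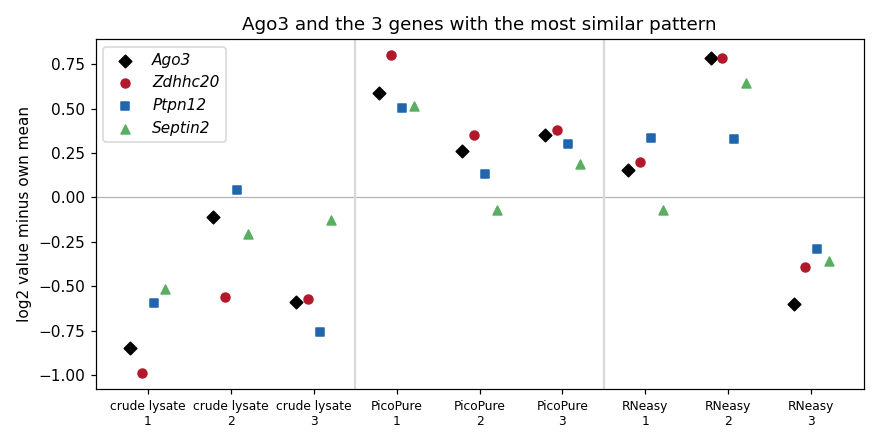
Log2 value minus the gene's own mean over the 9 arrays (vertical axis) for Ago3 (black diamonds), Zdhhc20, Ptpn12 and Septin2 in each oocyte (horizontal axis). Crude lysates 1 and 3 and RNeasy replicate 3 lie below 0 in all 4 genes, and PicoPure replicates 1 and 3 and RNeasy replicate 2 lie above 0.

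Other genes of the pathway were taken from 3 lists. Of 21 microRNA processing genes with a row, 17 were above background throughout and 3 never (43.1% and 35.1% of all genes). None passed between crude lysate and purified RNA (0 higher and 0 lower, with 1.01% of all genes called), and the median difference was -0.01. Lin28a, an RNA-binding protein that blocks let-7 maturation, had 9.47 ± 0.23 in the lysates (SD, n = 3) and 9.76 ± 0.09 after purification (SD, n = 6) (limma, adjusted p = 0.241). The splicing and decay regulator gene Khsrp had 9.10 and 9.57 (difference -0.47, limma, adjusted p = 0.278), the terminal uridylyltransferase gene Tut7 had 10.55 and 10.24, and the double-stranded RNA-binding factor gene Ilf2 had 9.27 and 9.52, none past the threshold. Without DirectLysis replicate 3 the difference was -0.06 for Ilf2 and 0.19 for Tut7, against -0.24 and 0.32 with all arrays.

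Of 16 partners of the silencing complex 15 were above background throughout and 1 never (43.1% and 35.1% of all genes). In crude lysate 1 was higher and 0 were lower (1.01% of all genes were called), and the median difference was -0.01. The gene that passed was Mov10, an RNA helicase that associates with Argonaute proteins. It had 8.92, 9.11 and 8.71 in crude lysate, 8.41, 8.06 and 8.34 with PicoPure and 8.30, 8.28 and 8.02 with RNeasy. All crude lysates lay above all purified oocytes (8.02% of all genes had no overlap in either direction). The difference was 0.68 ± 0.12 SE or 1.60-fold (limma, adjusted p = 0.0488), close to the threshold, and the call was lost in 13 of 17 alternatives, including every fit with 1 array left out and the fit with a replicate block (adjusted p = 0.111).

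Pan2, the catalytic subunit of a deadenylase that silencing complexes recruit, had 9.62, 8.88 and 8.37 in crude lysate. It had 10.49, 10.56 and 10.39 with PicoPure and 10.15, 9.71 and 10.00 with RNeasy. All crude lysates lay below all purified oocytes, and 8.02% of all genes had no overlap there in either direction. The difference was -1.26 ± 0.24 SE or 2.39-fold and did not pass (limma, adjusted p = 0.0674). Without DirectLysis replicate 1 it was -1.59 and passed (limma, adjusted p = 0.0151). Fmr1, the fragile X gene, had 9.06 in the lysates and 9.50 after purification, the LIM protein gene Wtip 7.71 and 7.54, and the poly(A)-binding protein gene Pabpc1 9.96 and 9.54, none past the threshold.

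Of 23 piRNA factors with a row, 16 were above background throughout and 2 never (43.1% and 35.1% of all genes). None passed (0 higher and 0 lower, with 1.01% of all genes called), and the median difference was 0.11. Pld6, a mitochondrial nuclease of piRNA formation, had 9.05 ± 0.13 in the lysates (SD, n = 3) and 8.75 ± 0.09 after purification (SD, n = 6). Its groups did not overlap (8.02% of all genes), and the difference did not pass (limma, adjusted p = 0.176). The germ cell helicase gene Ddx4 had 11.06 and 11.40, the piRNA methyltransferase gene Henmt1 11.03 and 10.70, and the Tudor domain gene Tdrd12 12.12 and 11.95, none past the threshold. Without DirectLysis replicate 2 the Henmt1 difference was 0.20, against 0.33 with all arrays. Piwil1, the Piwi gene that the 10 do not hold, was above background on all arrays with 9.49 ± 0.37 in the lysates (SD, n = 3) and 9.24 ± 0.44 after purification (SD, n = 6) (limma, adjusted p = 0.712).

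Between PicoPure and RNeasy none of the genes of the 3 lists passed, where 0.0602% of all genes did. None passed between crude lysate and RNeasy alone (0.436% of all genes) or PicoPure alone (0.597% of all genes). With shares this low, 0 calls in lists of this size are near the background.

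**Figure D4:**
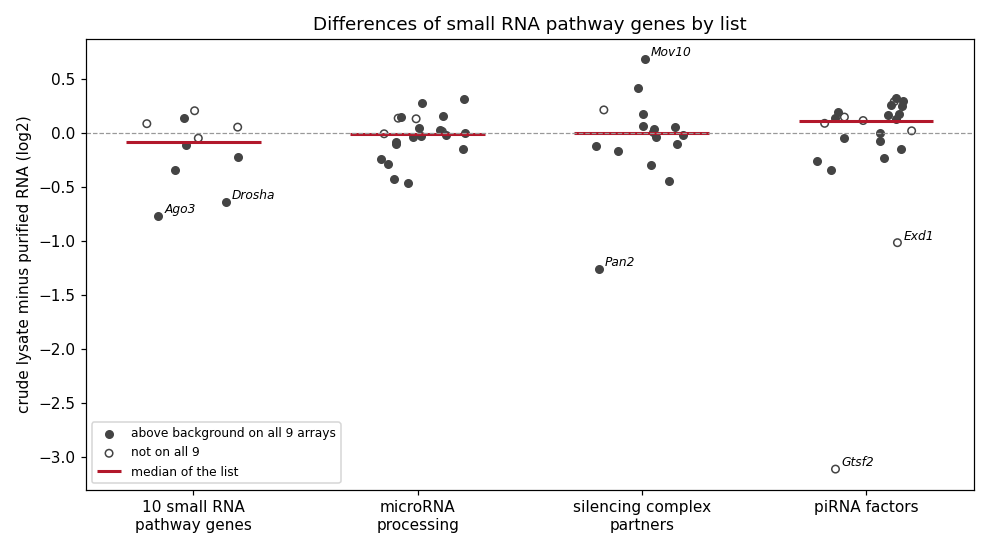
Difference of crude lysate from purified RNA on the log2 scale (vertical axis) for the 10 genes and the 3 lists of pathway genes, each dot 1 gene, filled where it was above background on all 9 arrays and open otherwise, with red bars at the list medians. Most genes lie within 0.5 of 0, Mov10 lies at 0.68 and Pan2 at -1.26. The lowest dot, open, is Gtsf2, whose crude lysates were all below background, so its position is not a measured size.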

How the data were processed

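Each array held the amplified RNA of 1 oocyte. The deposited table gives 1 log2 value per row and array (35556 rows, 9 arrays, 0 missing). The submitters' processing notes name GCOS, GCRMA and Affymetrix Expression Console, without roles or order. The log2 scale was read from the values, which run from 2.41 to 13.90 with array medians from 7.12 to 7.24. The background correction and its effect on low values are not given in the sources used here. Precision is limited by the number of arrays.

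The platform's probe table gave 21789 rows 1 symbol each, and taking 1 row per gene, that of highest mean, left 19938 genes. limma 3.58.1 in R 4.3.3 fitted 3 group means over all 9 arrays (lmFit, eBayes, 6 residual degrees of freedom), two-sided, and p-values were adjusted by Benjamini-Hochberg over all genes (threshold 0.05). On simulated data with these variances and 19938 genes the fit called 75% of 1-unit and 98% of 2-unit log2 changes in crude lysate, and 79% and 95% of those in PicoPure. These shares are over all genes and do not hold for each of the 10. Against purified RNA, Drosha, Dgcr8, Ago2 and Ago3 had SE of 0.19, 0.23, 0.30 and 0.29. Mov10, which passed narrowly at a difference of 0.68, had a smaller SE (0.12). Between PicoPure and RNeasy the SE of Drosha, Dgcr8, Ago2 and Ago3 were 0.21, 0.26, 0.34 and 0.33, and that of Mael was 0.15. For such genes 0 calls do not exclude a 1-unit change. Named list genes were those past the threshold and up to 4 others above background with the smallest p. The 10 genes and the lists were chosen with earlier results of these data known. Alternatives covered scaling, low values, rows, variance model, replicate block and single arrays left out.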

Additional observations from a re-analysis of the deposited data

Results flagged for a closer look

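Among the 6 purified oocytes, which pool both kits, Dixon's test at the 95% level flagged 3 single values. For Piwil2 and Piwil4 the other values lay below background, so those flags describe gaps among low values. Chance alone marks about 1 group in 20, and 10 genes were examined. Ago2 had 9.28 in RNeasy replicate 1, while the next oocyte was at 8.13 and the lowest at 7.69. The second row of Ago2 had 7.78 in the same oocyte.

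Piwil2 had 7.35 in RNeasy replicate 2, the only array on which it was above background, while the next purified oocyte was at 6.93 and the lowest at 6.79. Piwil4 had 6.64 in PicoPure replicate 2, with the next at 6.54 and the lowest at 6.50, all below background.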

How the results depend on the processing

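Over 651 fits of the 10 genes' differences under the alternatives, 631 kept direction and side of the threshold. Only Drosha changed side, when DirectLysis replicate 3 was left out, so the number of the 10 genes called ran from 0 to 1 over single arrays left out, both against purified RNA and against PicoPure alone (Drosha -1.05, adjusted p = 0.0394). It stayed at 0 in the other comparisons and with every other alternative run. Signs changed only for differences that passed nowhere. With the lower row, Ago2 gave 0.078 against purified RNA and 0.035 against RNeasy. Under a further quantile normalization Ago4 gave 0.0032 against RNeasy. With single arrays left out, PicoPure minus RNeasy ran from -0.15 to 0.16 for Ago1, from -0.069 to 0.62 for Ago3, from -0.21 to 0.065 for Piwil2, from -0.0055 to 0.066 for Piwil4 and from -0.20 to 0.032 for Mael. Crude lysate minus RNeasy ran from -0.040 to 0.0058 for Ago4, from -0.21 to 0.065 for Piwil2, from -0.0058 to 0.17 for Piwil4 and from -0.017 to 0.21 for Mael. Crude lysate minus PicoPure ran from -0.018 to 0.18 for Ago2, from -0.0054 to 0.0044 for Piwil2 and from -0.044 to 0.14 for Piwil4. Crude lysate minus purified RNA ran from -0.11 to 0.032 for Piwil2, from -0.025 to 0.15 for Piwil4 and from -1.81 to 0.35 for Exd1. The number above background on all arrays was 6, or 5 with the 99th percentile of the receptors, which Ago2 passed on 1 array. With the 90th percentile it stayed 6, but Piwil2 was above it on 5 arrays, Ago1 on 2, and Ago4 and Piwil4 on none.

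Over all genes, crude lysate against purified RNA gave 201 calls and 25 with a replicate block. With single purified oocytes left out it gave between 24 (RNeasy replicate 1) and 116 (PicoPure replicate 3). With single crude lysates left out it gave 232 (replicate 1) or 146 (replicate 2 or 3). The share of higher calls was 68 of 201, but 75 of 158 under a further quantile normalization and 37 of 157 with values raised to background. The labels do not say that replicate numbers pair oocytes. Deviations of same-numbered oocytes correlated between -0.09 and 0.13 over genes, and those of oocytes with different numbers between -0.11 and 0.17. The closest oocyte of another group had the same number in 10 of 18 comparisons, each among 3 oocytes. Whether 10 exceeds chance was not tested. With the replicate block Drosha differed by -0.64 with an adjusted p of 0.194, and 0 of the 10 genes passed. Against PicoPure alone the smallest adjusted p of the 10 under the block was that of Dgcr8 (limma, 0.205). Mov10 lost its call with median centring (adjusted p = 0.0701), values raised to background (0.0505) and trend and robust settings (0.0705), and its adjusted p ran from 0.0542 to 0.117 with single arrays left out. The cause was not tested. Ago1, Ago4, Piwil2 and Piwil4 were not tested where only genes above background on at least 3 arrays were kept. With values raised to background, differences between groups of which no array was above it hold background levels alone and are not counted here. The variance pooled over groups stands in for the spread of groups left with 2 oocytes.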

Other observations

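Outside the genes named by rule, 2 piRNA factors were picked after their values were seen. Gtsf2, a member of the gametocyte specific factor family, had 5.74, 5.05 and 5.14 in crude lysate. It had 8.72, 9.09 and 7.96 with PicoPure and 9.04, 9.45 and 6.30 with RNeasy. None of the crude lysates was above background, against 5 of 6 purified oocytes, the exception being RNeasy replicate 3, which had the highest cumulus marker level. With the lysates set at background, the mean of purified RNA lay 2.25-fold above them. That mean includes RNeasy replicate 3, itself below background, so the fold is not a firm lower limit. Gtsf2 did not pass (limma, adjusted p = 0.0879). Without RNeasy replicate 3 it did (adjusted p = 0.0127).

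Exd1, a piRNA biogenesis factor in the mouse testis, was below background in a single oocyte. It had 10.43, 6.55 and 10.86 in crude lysate, 10.74, 10.52 and 10.80 with PicoPure and 10.52, 9.02 and 10.17 with RNeasy. Only DirectLysis replicate 2 was below background. The difference of crude lysate from purified RNA was -1.02 with all arrays and 0.35 without that oocyte.

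Piwil2 held the identical value, 6.92, on 5 of the 9 arrays (equal within 1e-06), all 3 crude lysates among them. The other 9 genes shared a value between 2 arrays at most.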
